A study of Mus musculus with 8 samples.

Results

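The 9 genes described here, *Elf5*, *Ehf*, *Elf3*, *Sox9*, *Sox10*, *Foxc1*, *Foxs1*, *Creb5* and *Hmga1*, encode regulators of transcription. They are grouped here as factors of the secretory lineage of the mammary gland. The study placed *Elf5*, *Ehf* and *Foxs1* in that lineage, but gave *Creb5* and *Hmga1* the same course along both luminal lineages. Several of the 9 had their highest level in other cells, as described below. The 9 genes were taken by symbol from the 27998 genes of the count tables, and all 9 were found, each under 1 gene identifier. All animals were female C57BL/6N mice, and each of the 4 stages had 2 of them. The nulliparous mice (NP) were 8 weeks old, the pregnant mice (G) were taken at gestation day 14.5, the nursing mice (L) after 6 days of lactation, and the last group (PI) 11 days after natural weaning. EpCAM-positive cells, depleted of blood and endothelial cells, were sorted from the glands, and every library held the cells of 1 mouse. With 2 mice at each stage a difference between stages is a difference between 2 pairs of animals. The NP mice and the second PI mouse were in oestrus and the first PI mouse was in dioestrus.

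The mammary gland has an outer basal layer, which contracts during lactation, and an inner luminal layer, in which hormone-sensing cells stand beside a secretory lineage. The secretory lineage runs from luminal progenitors to alveolar cells, which grow during pregnancy and make milk. ETS factors bind GGAA core sequences, and ELF5 is known as a driver of alveolar development downstream of prolactin signalling. SOX9 and SOX10 are SOXE factors of stem and progenitor cells in many epithelia and of the neural crest. FOXC1 and FOXS1 are forkhead factors, CREB5 is a leucine zipper factor that binds cAMP response elements, and HMGA1 is an architectural protein that binds AT-rich DNA in chromatin.

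*Elf5* and *Ehf* are neighbours on chromosome 2 of the GRCm38 (mm10) genome. *Elf5* (ENSMUSG00000027186) lies from 103411688 to 103450989 on the plus strand and *Ehf* (ENSMUSG00000012350) from 103263433 to 103303278 on the minus strand, with 108409 bases and no protein-coding gene between them. *Elf3* (ENSMUSG00000003051) lies on chromosome 1 from 135253575 to 135258568, *Foxs1* (ENSMUSG00000074676) on chromosome 2 from 152931898 to 152933208, *Creb5* (ENSMUSG00000053007) on chromosome 6 from 53287270 to 53700376, and *Sox9* (ENSMUSG00000000567) on chromosome 11 from 112782224 to 112787760. *Foxc1* (ENSMUSG00000050295) lies on chromosome 13 from 31806633 to 31812476, *Sox10* (ENSMUSG00000033006) on chromosome 15 from 79154908 to 79165240, and *Hmga1* (ENSMUSG00000046711) on chromosome 17 from 27556497 to 27563674. *Elf3* overlaps 1 other gene of the count tables, Gm26642, and *Hmga1* overlaps AI413582, in both cases on the opposite strand.

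RefSeq promoter sequences (250 bases before to 50 after a start site, GRCm38.p6) were at hand for *Elf5*, *Elf3*, *Foxc1*, *Creb5* and *Hmga1*. Those of *Elf5* and *Elf3*, the ETS genes with an entry, and of *Creb5* are printed to show the family's core letters where the data bear on the gene, and capitals mark these letters on either strand (GGAA for *Elf5* and *Elf3*, TGACGTCA for *Creb5*).
Elf5, first start, chr2:103411848-103412147, plus strand: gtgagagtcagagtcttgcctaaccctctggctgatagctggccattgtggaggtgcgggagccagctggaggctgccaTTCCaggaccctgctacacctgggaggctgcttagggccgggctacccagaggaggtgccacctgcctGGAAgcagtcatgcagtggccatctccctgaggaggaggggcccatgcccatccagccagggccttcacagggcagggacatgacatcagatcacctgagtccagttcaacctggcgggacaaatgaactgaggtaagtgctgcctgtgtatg
Elf5, second start, chr2:103423818-103424117, plus strand: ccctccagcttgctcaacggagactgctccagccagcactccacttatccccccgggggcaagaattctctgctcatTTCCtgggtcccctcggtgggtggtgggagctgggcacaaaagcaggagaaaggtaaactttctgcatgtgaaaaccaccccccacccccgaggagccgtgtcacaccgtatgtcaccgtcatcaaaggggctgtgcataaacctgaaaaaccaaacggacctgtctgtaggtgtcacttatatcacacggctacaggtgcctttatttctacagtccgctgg
Elf3, chr1:135258423-135258722, minus strand: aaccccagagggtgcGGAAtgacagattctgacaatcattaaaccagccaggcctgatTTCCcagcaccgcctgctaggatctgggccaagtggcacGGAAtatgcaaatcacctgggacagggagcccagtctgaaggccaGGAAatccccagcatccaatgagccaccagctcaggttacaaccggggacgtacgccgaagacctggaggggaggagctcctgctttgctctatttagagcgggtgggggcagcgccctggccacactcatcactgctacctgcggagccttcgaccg
Creb5, first start, chr6:53287053-53287352, plus strand: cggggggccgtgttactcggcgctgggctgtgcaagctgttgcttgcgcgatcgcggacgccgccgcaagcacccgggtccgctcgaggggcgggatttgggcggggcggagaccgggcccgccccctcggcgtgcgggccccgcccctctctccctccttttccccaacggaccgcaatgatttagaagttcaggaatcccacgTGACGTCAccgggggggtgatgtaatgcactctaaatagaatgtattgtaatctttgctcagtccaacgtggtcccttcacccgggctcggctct
The GGAA letters are in 96.0% of the 32851 promoters, so their presence here sets no gene apart, and the *Elf5* starts held 2 and 1 of them and *Elf3* held 4. The full TGACGTCA element, in 1.79% of all promoters, was found once in the first *Creb5* promoter and in none of the other 7 promoter windows of these genes.

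The libraries held 13785920 to 35711533 unique molecular identifiers (UMIs, each marking 1 captured transcript), with 3770 to 9624 in the median cell and the lowest medians in the L mice. In all, 791 barcodes were removed because they occurred in more than 1 library, and 23183 of the cells kept lay in the authors' clusters C1 to C15. UMIs were summed over the cells of a cluster in each mouse (at least 20 cells, 35 sums) and are given as CPM, a measure relative to all UMIs of the sum, with mouse 1 before mouse 2. Because only the 3′ ends are counted and genes differ in capture, CPM are compared between clusters for 1 gene and not between genes. The sums of G and L mice also held transcripts typical of other clusters: milk protein genes in basal cells (C13) stood at 1.84% and 1.64% of their level in differentiated alveolar cells (C8) of the same G mice. In the L mice the 6 basal markers together reached 5116 and 3635 CPM in alveolar progenitors (C11), 14.6% and 11.5% of their level in myoepithelial cells (C14), and in C9 of the same mice 6.22% and 3.12%. Clusters were defined by the authors on the same transcripts, so that differences between clusters are descriptions and were not tested.

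*Elf5* was concentrated in the secretory lineage and was highest in the alveolar cells of lactation. In the luminal progenitors of nulliparous mice (C6) it was at 54.0 and 76.7 CPM. It was at 256 and 208 CPM in the alveolar progenitors of gestation (C10) and at 495 and 417 CPM in the differentiated alveolar cells of the same mice (C8). The 3 ranges did not overlap, and the level in C10 was 0.518 and 0.499 times that in C8 of the same mouse. Alveolar progenitors of lactation (C11) held 727 and 637 CPM and differentiated alveolar cells (C9) 468 and 481 CPM, where C9 overlapped with C8. In C9 the milk protein genes reached 447500 and 417200 CPM, which lowers the share left for all other genes, and with these genes left out of the total *Elf5* stood at 847 and 826 CPM in C9 against 784 and 677 CPM in C11. The order of the lactation clusters thus turned with the total that was used.

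*Elf5* was also found in hormone-sensing progenitors and was low in differentiated hormone-sensing and basal cells. Hormone-sensing progenitors held 22.8 and 25.1 CPM in NP mice (C2) and 112 and 76.4 CPM in PI mice (C1), a level that overlapped with C6. Differentiated hormone-sensing cells (C3 to C5) stayed between 0 and 11.6 CPM, and basal clusters (C12 to C14) between 0 and 8.96 CPM. In C13 of the G mice the *Elf5* level was 1.69% and 1.92% of that in C8, close to the share of milk protein transcripts there (1.84% and 1.64%). In C14 of the L mice it was 0.644% and 0.529% of that in C11, below the share of milk protein transcripts (2.51% and 3.58%). Against C9 of the same mice it was 1.0% and 0.7%, above the share of milk protein transcripts (0.405% and 0.508%). How much of the low *Elf5* level comes from other cells was not tested.

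*Ehf*, another ETS factor of epithelia, had its highest levels in the same lineage but a different course in lactation. It was at 515 and 485 CPM in C10, 381 and 506 CPM in C8, and 410 and 447 CPM in C11, and these neighbours in the order overlapped. In C9 it was at 105 and 75.5 CPM, below all 3, and with milk genes left out of the total at 190 and 130 CPM. Luminal progenitors held 149 and 145 CPM (C6) and 198 and 163 CPM (C7), separate from C10. Unlike *Elf5*, *Ehf* was also present in differentiated hormone-sensing cells, with 37.5 and 33.2 CPM in C4, while myoepithelial cells of lactation (C14) held 1.66 and 1.57 CPM.

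*Elf3*, an ETS factor of simple epithelia, was spread over all luminal clusters. In C11 the mice differed widely, with 177 and 604 CPM, and no order can be read there. Luminal progenitors were at 126 and 109 CPM (C6) and 221 and 171 CPM (C7), and hormone-sensing cells between 46.5 and 161 CPM over all their clusters. Differentiated alveolar cells were lower, with 40.9 and 42.3 CPM in C8 and 26.2 and 44.5 CPM in C9. With milk protein genes left out of the total, C8 stood at 45.2 and 44.8 CPM and C9 at 47.4 and 76.3 CPM. The place of C9 thus depended on the total used. The 22 cells of the first PI mouse that lay in C6 held 1055 CPM of *Elf3*, from 160 UMIs, a value with no second mouse. Basal cells of gestation (C13) stood at 5.31 and 5.03 CPM.

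**Figure D1:**
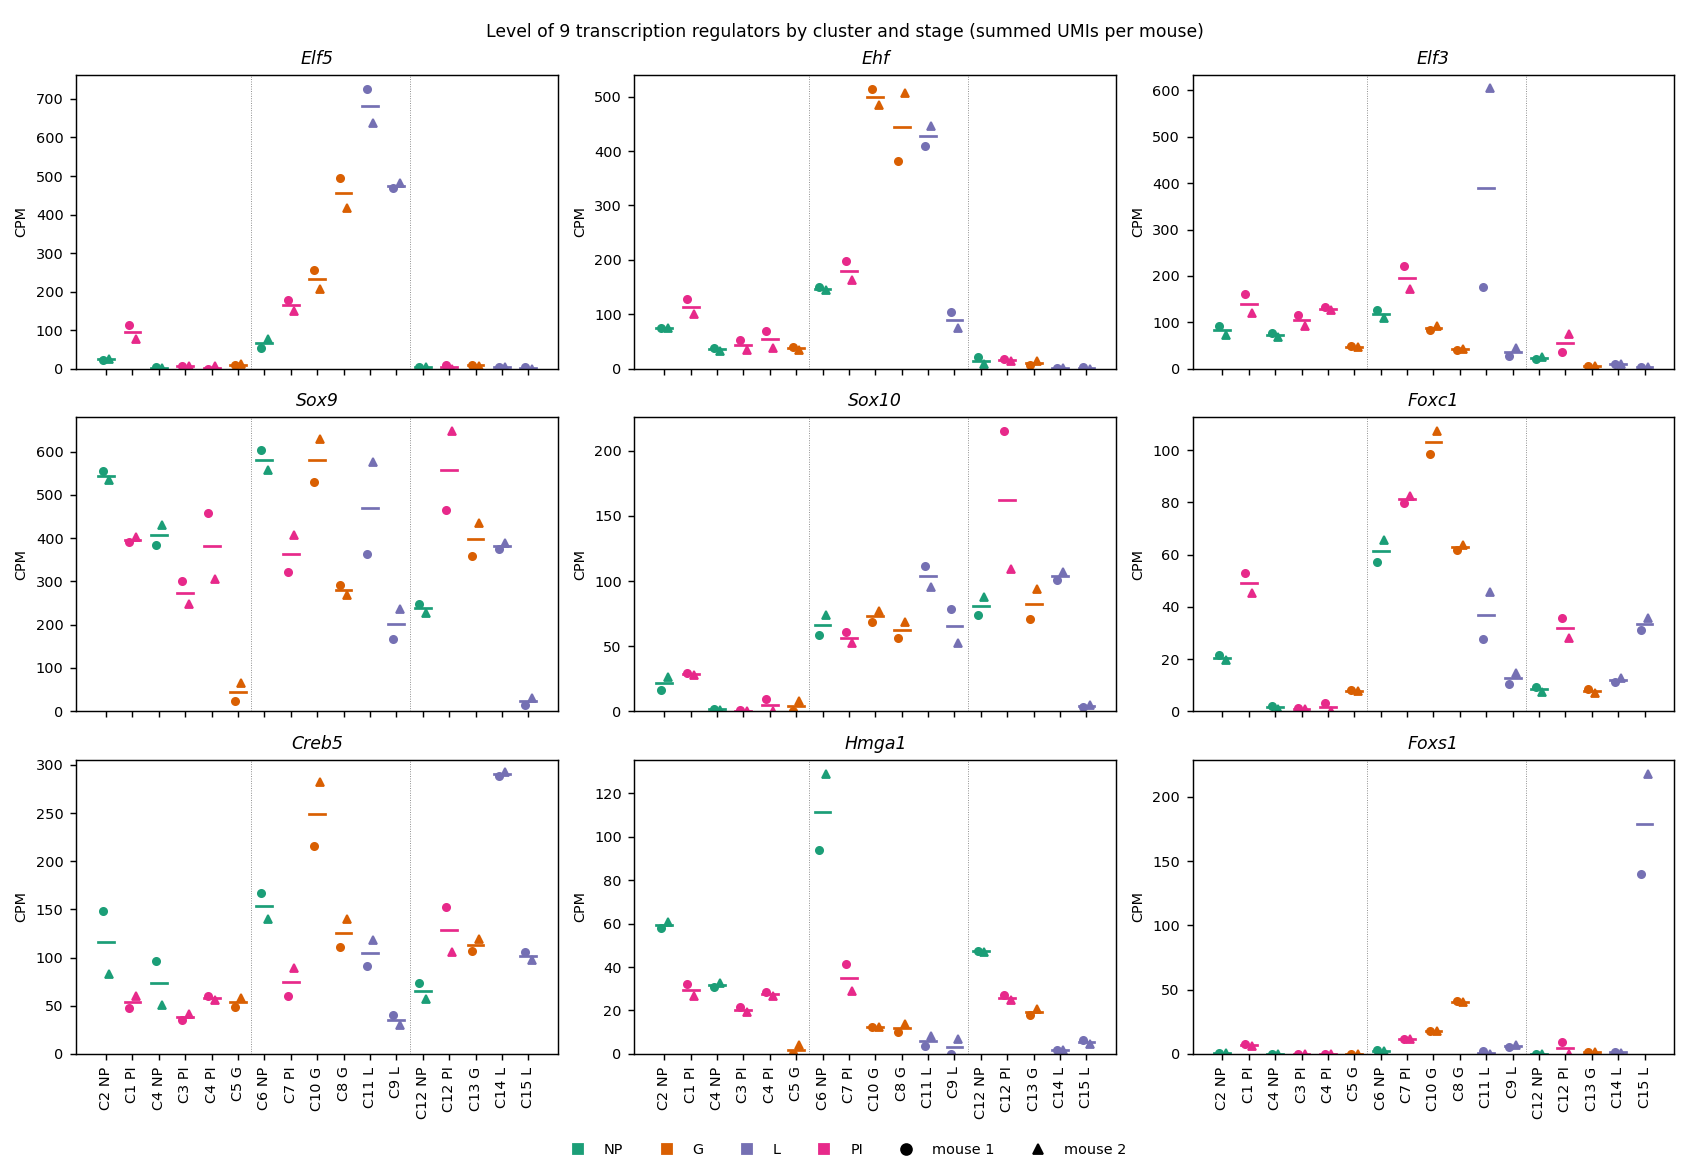
Level of each gene (CPM, linear axis from 0) in every cluster and stage with 2 mice, hormone-sensing clusters to the left of the first dotted line, luminal progenitors and alveolar clusters in the middle and basal clusters and C15 to the right. Circles and triangles are mice 1 and 2 and bars their mean: *Elf5* reaches 682 in C11 and stays under 9 in all basal clusters, while the mean of *Sox9* lies above 200 in all but C5 and C15.

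*Sox9* was found in hormone-sensing, secretory and basal cells alike. It was at 604 and 557 CPM in C6, 555 and 535 CPM in C2, 529 and 630 CPM in C10, and 466 and 648 CPM in basal cells of PI mice (C12). The ranges of C10 and C12 overlapped with each other and with those of C6 and C2. In NP, G and L mice differentiated luminal cells held less than the progenitors of their stage. They held 385 and 431 CPM in C4 of NP mice, 292 and 270 CPM in C8 and 168 and 237 CPM in C9 (against 364 and 576 CPM in C11). With milk protein genes left out of the total, C9 held 303.5 and 407.0 CPM against 391.8 and 612.3 CPM in C11. That was lower in each mouse, but the ranges overlapped. In PI mice C3 held 300 and 248 CPM, below C7 (321.0 and 407.5 CPM) in each mouse. The fewer cells of PI mice in C4 held 459 and 306 CPM, overlapping with C7. Myoepithelial cells (C14) held 376 and 388 CPM, above C12 of NP mice (248 and 227 CPM) and within the range of C13. In both G mice *Sox9* was higher in C10 than in C8, 1.81 and 2.34 times. It was lowest in differentiated hormone-sensing cells of gestation (C5), with 3 and 17 UMIs or 24.3 and 65.8 CPM, and in C15, with 13.97 and 31.2 CPM.

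*Sox10* was present throughout the secretory lineage and in basal cells and was almost missing from mature hormone-sensing cells. It was at 58.2 and 73.8 CPM in C6, 68.9 and 76.7 CPM in C10, 56.2 and 68.3 CPM in C8, and 70.8 and 93.8 CPM in C13, and neighbours in this order of levels overlapped. In C4 of the NP mice it was at 1.74 and 1.31 CPM and in C3 of the PI mice at 0.600 and 0.515 CPM. Hormone-sensing progenitors stood between, with 16.6 and 26.3 CPM (C2) and 29.6 and 28.1 CPM (C1). *Sox10* is also a factor of Schwann cells, and 7 Schwann cell markers together were at 308 and 343 CPM in C14, 72.7 and 96.2 CPM in C6 and 25.2 and 32.8 CPM in C8; their part in the *Sox10* levels was not tested.

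*Foxc1* was highest in alveolar progenitors of gestation, at 98.7 and 107 CPM in C10, above 79.8 and 82.5 CPM in C7 and 61.9 and 63.7 CPM in C8, with no overlap between C10 and C7. C6 stood at 57.0 and 65.5 CPM, overlapping with C8. In lactation it was at 27.8 and 45.9 CPM in C11 and 10.5 and 14.8 CPM in C9. Differentiated hormone-sensing cells of NP and PI mice held 0 to 3.16 CPM. Outside C1 to C15, the authors' cluster C19 held 144 and 129 CPM in the L mice.

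*Foxs1* was higher in the differentiated alveolar cells of gestation than in the progenitors. It was at 3.02 and 2.07 CPM in C6, 17.6 and 17.5 CPM in C10 and 40.9 and 40.3 CPM in C8, without overlap. In lactation C11 held 2 and 0 UMIs and C9 3 and 5 UMIs. The highest *Foxs1* level was in C15 of the L mice, at 140 and 218 CPM. The authors named C15 for *Procr*, and 8 pericyte markers, among them *Rgs5* and *Pdgfrb*, together reached 6472 and 5731 CPM there, with all 8 detected, against at most 168 CPM in any other of the 15 clusters. *Elf5*, *Ehf* and *Sox10* were each at most 4.45 CPM in C15.

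*Creb5* had 2 separate high points, myoepithelial cells of lactation (C14), with 288 and 292 CPM, and C10, with 216 and 283 CPM. In the G mice it was 1.94 and 2.02 times higher in C10 than in C8. Luminal progenitors were at 168 and 140 CPM in NP mice (C6) and 60.5 and 89.2 CPM in PI mice (C7). Outside C1 to C15, cluster C18 held between 90.6 and 317 CPM over the 7 libraries with 20 or more of its cells.

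Among C1 to C15, *Hmga1* was highest in progenitors and basal cells of the nulliparous gland. In C6 it was at 93.9 and 129 CPM, followed without overlap by C2, at 58.0 and 60.7 CPM, and basal cells of NP mice (C12), at 47.2 and 47.1 CPM. In PI mice C7 held 41.5 and 28.7 CPM, C1 32.3 and 26.5 CPM and C12 26.9 and 24.7 CPM, while C4 of NP mice held 30.7 and 32.7 CPM, overlapping with C7 and C1. Alveolar cells held 10.1 to 13.8 CPM in gestation and 0 to 8.23 CPM in lactation, and C14 held 1.75 and 1.87 CPM. Outside C1 to C15, cluster C18 held 50.5 and 62.5 CPM in NP mice, from 7 and 20 UMIs, above C12. It held 0 and 6.6 CPM in G mice and 3.2 and 4.3 CPM in L mice, so a lower level in G and L was not particular to basal cells.

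The share of cells with a UMI of *Elf5* gave the same order as the levels for C6, C10 and C8. With all UMIs, 32.5% (95% Clopper-Pearson interval 27.8 to 37.5) and 37.0% (31.7 to 42.6) of C6 cells held one, 82.0% and 77.8% of C10 cells, and 96.4% and 92.7% of C8 cells. In basal cells of the same G mice (C13) the share was 6.10% (4.21 to 8.50) and 5.56% (3.85 to 7.71), with median depths of 6201 and 6060 UMIs against 10900.5 and 8676.5 in C8. After thinning every cell to 1000 UMIs the shares were 4.30% and 7.28% in C6, 21.3% and 19.8% in C10, 40.2% and 32.3% in C8 and 44.4% and 43.8% in C11, against 0.571% and 1.18% in C13. *Sox10* was found, thinned, in 5.91% and 8.86% of C6 cells and 0.103% and 0.165% of C4 cells of the same NP mice. Intervals cover counting error only.

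**Figure D2:**
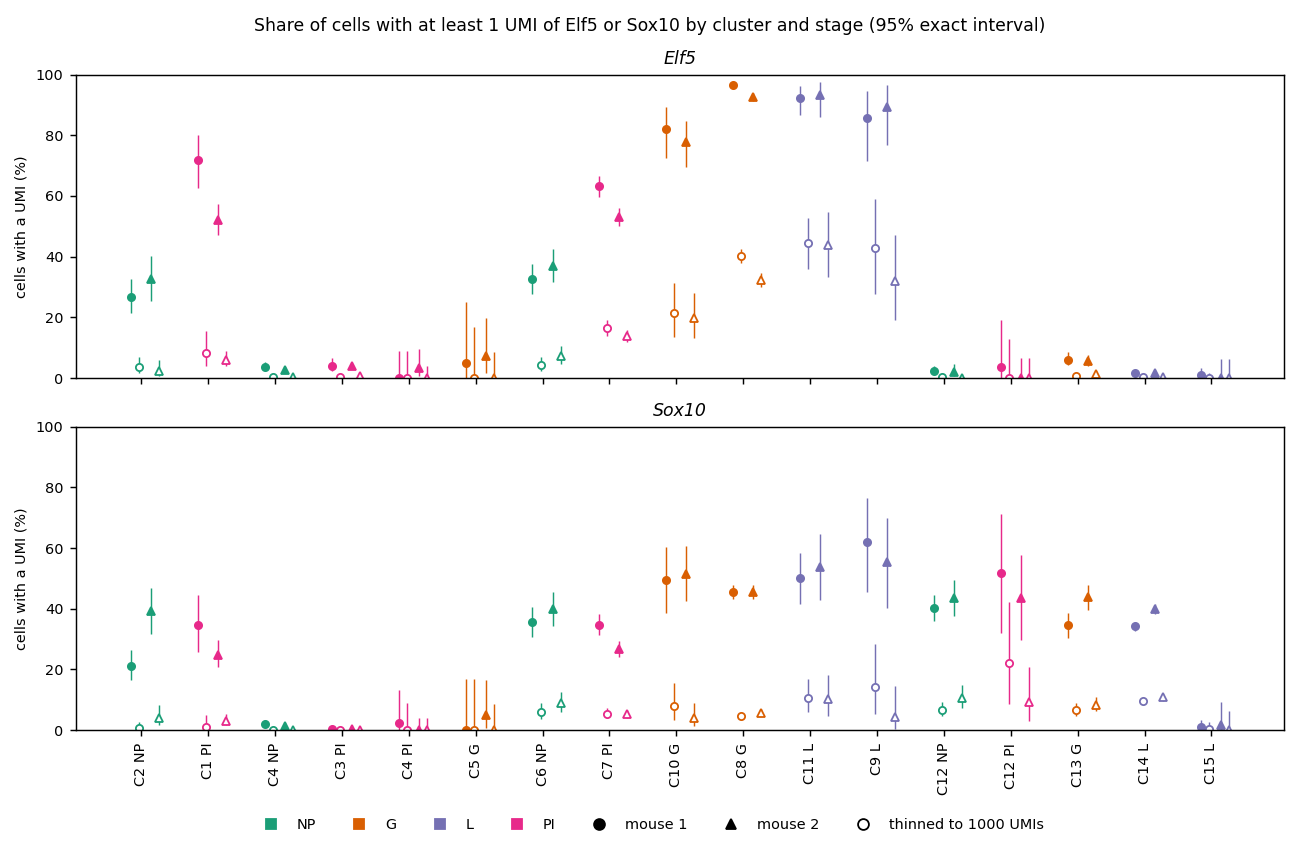
Share of cells (%) with at least 1 UMI of *Elf5* (top) and *Sox10* (bottom) by cluster and stage. Filled symbols use all UMIs and open symbols 1000 UMIs of each cell, circles and triangles are mice 1 and 2, and lines are 95% exact binomial intervals: thinned shares of *Elf5* rise from 4.30% and 7.28% in C6 to 40.2% and 32.3% in C8.

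Over the 35 sums of mouse and cluster, which share libraries and differ in depth, *Elf5* and *Ehf* had the most similar course among the 36 pairs of these genes (Pearson r = 0.809 of log2(CPM + 1)), followed by *Ehf* and *Elf3* (0.779) and *Sox10* and *Foxc1* (0.649). *Sox9* and *Foxs1* were the most opposed (-0.336). Among 8897 genes compared, those most like *Elf5* were *Cytip* (r = 0.929), *Muc15*, *BC016548*, *Enpp3* and *Btn1a1*, the last of which encodes butyrophilin of the milk fat globule. For *Ehf* they were *Ctsh* (0.945), *Rhov*, *Ckmt1*, *Tjp3* and *Trim46*, and for *Elf3* *Rhpn2* (0.899), *Pvrl4*, *Krt18*, *Ggct* and *Cblc*. *Sox9* was followed most closely by *Arhgef3* (0.904), *Eya2*, *Celsr2*, *Cxcl16* and *Kdf1*, and *Sox10* by *Cadm1* (0.957), *Efna5*, *Cp*, *B4galt6* and *Rab11fip5*. The nearest to *Foxc1* were *Slc43a2* (0.839), *Mgst1*, *Tgfb2*, *Pdlim1* and *Ccrl2*, and to *Foxs1* *C130074G19Rik* (0.859), *Hebp1*, *Adamts15*, *Lmcd1* and *Ncald*. *Creb5* had no close match, with *Trib1* (0.785), *Bcl7c*, *Cdk5rap2*, *Zfp36l1* and *Slmap* nearest, and *Hmga1* was nearest to *Ndfip2* (0.860), *Rasa2*, *AU019823*, *Btbd9* and *Smurf1*.

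The next question was whether luminal progenitors of PI mice held the regulators at other levels than those of NP mice. These stages differ in past pregnancy, lactation and weaning, and an age is given only for the NP mice. Effects of these differences and of age cannot be told apart here. In PI against NP mice, 8 of the 9 genes passed edgeR's quasi-likelihood test (Benjamini-Hochberg adjusted p under 0.05, against 26.9% of all 10766 genes tested), 5 higher and 3 lower, where 13.9% and 13% of all genes were. *Elf5*, at 54.0 and 77.4 CPM in NP and 179 and 149 CPM in PI, rose by 1.41 on the log2 scale (SE 0.18, adjusted p = 2.07e-04). *Foxs1*, at 3.02 and 2.07 CPM against 11.7 and 11.1 CPM, rose by 2.20 (SE 0.33, adjusted p = 6.63e-04). All 4 mice kept to their side for both genes, as they did for 65.8% of all genes tested. *Elf3* rose from 126 and 110 CPM to 238 and 174 CPM, or 0.88 (SE 0.16, adjusted p = 0.00204), and without the 22 cells of the first PI mouse in C6 it still passed.

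Smaller rises were seen in *Foxc1*, by 0.51 from 57.0 and 65.4 CPM to 81.8 and 82.9 CPM (adjusted p = 0.0182), and in *Ehf*, by 0.41 from 149 and 144 CPM to 205 and 165 CPM (adjusted p = 0.0429). *Hmga1* fell the most, from 93.9 and 129 CPM to 41.4 and 28.5 CPM, a log2 change of -1.59 (SE 0.20, adjusted p = 2.32e-04). The RNA of *Hmga1* thus went against that of *Elf5*, *Elf3* and *Ehf*. *Creb5* fell from 167 and 140 CPM to 62.4 and 90.5 CPM, a change of -0.92 (SE 0.18, adjusted p = 0.00304), and *Sox9* from 604 and 556 CPM to 327 and 409 CPM, a change of -0.57 (adjusted p = 0.0134). *Sox10*, at 58.2 and 73.7 CPM against 60.8 and 52.4 CPM, overlapped between the stages (adjusted p = 0.576).

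These calls rest on 2 mice against 2, where an exact permutation test of 1 gene cannot go below p = 0.333. Without the first NP mouse 5 of the 9 genes passed, and *Ehf* (adjusted p = 0.18), *Sox9* (0.078) and *Foxc1* (0.20) did not; *Ehf* was also lost without the second NP mouse (0.16) or the first PI mouse (0.22), and *Sox9* without the latter (0.061). With all mice, *Ehf* missed with DESeq2's Wald test (adjusted p = 0.0921), with 1 cluster at each stage (0.0518) and in 1 fit over all sums (0.169), and *Foxc1* with the Wald test (0.068). The milk protein genes also changed, 7 of 7 tested higher in PI, with a median log2 change of 5.78, and their part in these results was not tested.

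Hormone-sensing progenitors (C2 and C1) of the same mice showed the same genes passing in the same directions, 8 of 9 against 16.6% of all genes (9.58% higher and 7.05% lower). *Elf5* was at 22.8 and 25.1 CPM in NP and 110 and 76.1 CPM in PI, a rise of 1.92 (SE 0.19, adjusted p = 3.39e-05). *Foxs1* rose from 0.966 and 0.867 CPM, or 5 and 3 UMIs in C2, to 7.18 and 5.95 CPM (adjusted p = 0.00257), with too few UMIs in NP for a firm fold change. *Foxc1* went from 21.4 and 19.6 CPM to 51.3 and 45.0 CPM, a rise of 1.20 (SE 0.16, adjusted p = 3.92e-04), with all PI values above all NP values. The 2 stages did not overlap for 58.9% of all genes in these cells. *Elf3* rose by 0.73 and *Ehf* by 0.59, while *Hmga1* changed by -1.08 (57.9 and 60.7 CPM to 31.3 and 26.4 CPM, adjusted p = 7.17e-04), *Creb5* by -1.07 (149 and 82.6 CPM to 47.7 and 61.0 CPM, adjusted p = 0.00713) and *Sox9* by -0.47.

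Fewer mice carried fewer of these calls: 3 genes passed without the first NP mouse and 5 without the second, with *Ehf* at adjusted p = 0.18 and 0.14, *Elf3* at 0.056 and 0.16 and *Sox9* at 0.20 and 0.23, and *Creb5* (0.14) and *Foxs1* (0.056) lost without the first. *Sox9* also missed without the first PI mouse (0.092). With all mice, *Ehf* missed with DESeq2's Wald test (0.0577), and *Ehf* (0.0833), *Elf3* (0.0975) and *Sox9* (0.109) in 1 fit over all sums. In these cells 6 of 6 milk protein genes rose, with a median of 6.6, 2 of 5 basal markers fell, and of 4 luminal progenitor markers 2 rose and 1, *Aldh1a3*, fell (log2 change -1.77); their part was not tested. The change from NP to PI was compared directly between hormone-sensing and luminal progenitors. For none of the 9 genes did it differ by edgeR's interaction test (lowest adjusted p = 0.0968), against 3.55% of all genes called at an adjusted p under 0.05. At an unadjusted p under 0.05 there were 4 of 9 (*Elf5*, *Sox10*, *Foxc1* and *Hmga1*), a limit for which no share of all genes was taken. None of the 9 passed in any alternative run with all mice.

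In differentiated hormone-sensing cells (C4 and C3), 4 of 8 genes tested passed, 1 higher and 3 lower, against 14.3% of all genes (7.64% higher and 6.65% lower). *Elf5* was low there, at 3.13 and 2.54 CPM in NP and 5.48 and 7.35 CPM in PI, with a log2 change of 1.21 (SE 0.29, adjusted p = 0.0164). *Hmga1* changed by -0.69 (31.1 and 32.8 CPM to 22.2 and 19.4 CPM, adjusted p = 0.0131), *Creb5* by -0.92 (96.2 and 50.9 CPM to 37.5 and 41.4 CPM, adjusted p = 0.0220) and *Sox9* by -0.60 (384 and 430 CPM to 314 and 250 CPM, adjusted p = 0.0375). *Hmga1*, *Creb5* and *Sox9* were thus lower in PI mice in all 3 luminal classes. Markers of other cells also changed here. Of 5 basal markers 4 fell and of 4 luminal progenitor markers 2 fell, with medians of -1.63 and -1.23. Milk protein genes rose, 4 of 4, with a median of 3.87. The part of these genes was not tested. *Elf5* missed with DESeq2's Wald test (adjusted p = 0.0811). Without either NP mouse only 1 of these genes passed, *Hmga1* without the first and *Creb5* without the second; without the second PI mouse *Elf5* (adjusted p = 0.19) and *Sox9* (0.098) missed. The fall of *Hmga1* was smaller here than in luminal progenitors, by 0.97 on the log2 scale (SE 0.18, adjusted p = 8.17e-04 for the difference), and *Foxc1* differed by -1.26 (SE 0.43, adjusted p = 0.0423), from levels of 0.747 to 1.96 CPM in the hormone-sensing cells. Against these 2 of 9 genes, 20.2% of all genes differed. The *Hmga1* difference was not called without the second NP mouse (adjusted p = 0.061), nor that of *Foxc1* without the first NP (0.46) or second PI mouse (0.52).

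**Figure D3:**
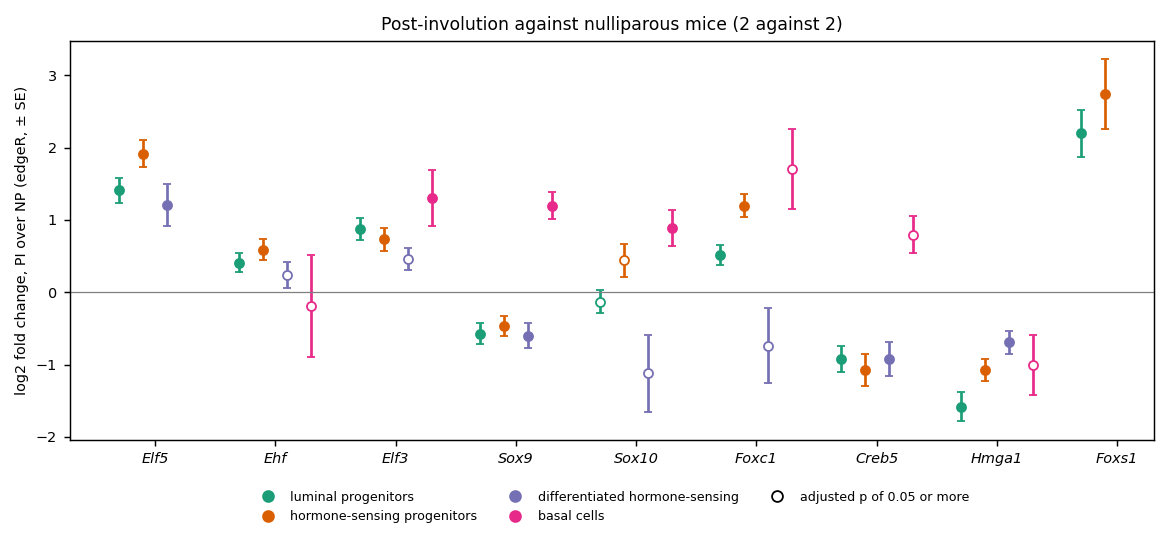
Log2 fold change (PI over NP, ± SE) of each gene in 4 cell classes, from sums of 2 mice against 2. Filled symbols passed at an adjusted p under 0.05 and open ones did not: *Elf5* and *Foxs1* lie above 0 and *Hmga1* and *Creb5* below 0 in every luminal class where they were tested, and *Sox9* is below 0 in luminal cells and at 1.20 in basal cells.

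Other regulators gave a mixed picture in luminal progenitors. Of 12 other genes of the secretory lineage, 4 were higher and 2 lower in PI mice, with a median log2 change of 0.43 against -0.02 over all genes. *Id2*, an inhibitor of basic helix-loop-helix factors that alveolar cells need, went from 75.7 and 82.0 CPM to 178 and 215 CPM, a rise of 1.40 (adjusted p = 5.88e-05), and *Stat5a*, which carries the prolactin signal, rose by 0.96 (adjusted p = 0.0145). *Tfap2c* fell from 73.3 and 109 CPM to 33.5 and 41.4 CPM (log2 change -1.19, adjusted p = 0.00129). Of 14 other ETS genes tested 2 were higher and 5 lower, with a median of -0.30, and *Ets1* moved against *Elf5*, from 117 and 111 CPM to 32.9 and 32.9 CPM (log2 change -1.71, adjusted p = 8.84e-06). Among 13 CREB/ATF and HMGA genes 4 rose and none fell, led by *Crem* (1.62, from 48.6 and 60.9 CPM to 154 and 161 CPM, adjusted p = 2.59e-05), while *Creb5* fell.

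None of 4 other SOX genes passed in luminal progenitors, and 2 of 15 forkhead genes rose, *Foxj1* by 1.31 and *Foxo1* by 0.43. In hormone-sensing progenitors *Id2* rose by 1.67 and *Crem* by 1.45, and *Ets1* fell (log2 change -0.90, adjusted p = 0.00114) as did *Sox4* (-0.94, adjusted p = 0.00586).

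In basal cells *Hmga1* and *Creb5* moved in opposite directions through gestation and lactation. From NP to G (C12 to C13 in the main), 5 of 8 genes passed, 3 higher and 2 lower, against 46.1% of all genes (24.3% and 21.9%). From G to L (C13 to C14) 7 of 9 passed, 4 higher and 3 lower, against 48.3% (24.2% and 24%), and both steps share the G mice. Shares of this size are near those of the whole transcriptome, and what follows describes single genes.

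*Hmga1* fell at each of these steps, from 47.2 and 46.9 CPM in NP to 17.6 and 20.4 CPM in G and 1.75 and 1.87 CPM in L. The log2 changes were -1.21 (SE 0.18, adjusted p = 5.20e-05) and -3.28 (SE 0.24, adjusted p = 2.90e-05). *Creb5* rose at each step, from 74.0 and 56.9 CPM to 106 and 121 CPM and then 288 and 292 CPM, by 0.86 (SE 0.15, adjusted p = 1.66e-04) and 1.47 (SE 0.12, adjusted p = 5.13e-05). For neither gene did the mice of neighbouring stages overlap, and each of these 4 calls stayed without any 1 mouse. Of all genes, 74.2% did not overlap from NP to G and 77.2% from G to L.

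*Sox9* rose from 248 and 226 CPM to 360 and 439 CPM in gestation, by 0.84 (SE 0.13, adjusted p = 8.53e-05), and was at 375 and 388 CPM in lactation, within the range of G. *Elf3* fell from 21.6 and 25.9 CPM to 5.28 and 4.94 CPM (log2 change -2.10, SE 0.27, adjusted p = 1.34e-05) and was higher again in lactation at 9.32 and 10.4 CPM, by 1.06 (SE 0.24, adjusted p = 0.00728). Luminal transcripts in the basal sums moved in the same direction in gestation, when 4 of 4 luminal and 6 of 6 hormone-sensing markers fell with medians of -2.17 and -3.29; their part in the *Elf3* change was not tested.

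In lactation *Sox10* went from 71.2 and 94.3 CPM to 100 and 107 CPM, a rise of 0.44 (adjusted p = 0.0435), and *Foxc1* from 8.30 and 7.63 CPM to 11.4 and 12.6 CPM, a rise of 0.71 (adjusted p = 0.0261). *Ehf* fell from 6.79 and 15.5 CPM to 1.66 and 1.56 CPM (log2 change -2.68, adjusted p = 8.41e-04). *Elf5* moved at 3.37 to 8.30 CPM, up in G (0.90, adjusted p = 0.0431) and down in L (-0.88, adjusted p = 0.0274); the part of transcripts from alveolar cells at these levels was not tested. Without the first G mouse *Elf5* (adjusted p = 0.068), *Sox10* (0.26) and *Foxc1* (0.052) lost their call in L against G, as they did without the second L mouse (0.12, 0.069 and 0.072). Without the second G mouse *Elf5* (0.063) and *Foxc1* (0.11) lost it. With all mice, DESeq2's Wald test left out *Elf5* (0.0998), *Sox10* (0.0712) and *Foxc1* (0.135), and its size factors *Sox10* (0.0612). The call of *Elf5* in G against NP was lost with the Wald test (0.255) and without any 1 of the 4 mice (0.085 to 0.16). In L against G 10 of 10 dissociation stress genes were higher in basal cells, with a median of 2.42, and 9 of 10 cell division genes lower, and in G against NP 8 of 10 cell division genes and 8 of 10 dissociation stress genes were higher, the latter with a median of 1.11. Of 6 fibroblast markers 5 were higher in G, with a median of 1.5 and a summed level of 885 and 680 CPM in C13 against 177 and 262 CPM in C12 of NP mice, and cluster C18, where these markers reached 14020 to 53310 CPM, also holds *Creb5*; their part in these changes was not tested.

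After involution, with 27 and 53 cells of C12 in the PI mice, 3 of 7 genes passed against NP, all higher, against 7.43% of all genes (4.74% higher and 2.69% lower). *Sox9* rose by 1.20 (SE 0.18, adjusted p = 1.14e-04) to 463 and 605 CPM, above every other stage, *Elf3* by 1.30 (SE 0.39, adjusted p = 0.0391) to 35.0 and 67.2 CPM, and *Sox10* by 0.89 (SE 0.25, adjusted p = 0.0294) to 210 and 122 CPM. In C12 *Elf3* rested on 4 and 21 UMIs. *Foxc1*, at 35.0 and 25.6 CPM against 9.40 and 7.28 CPM, and *Creb5*, at 149 and 102 CPM against 74.0 and 56.9 CPM, did not overlap but missed (adjusted p = 0.0601 and 0.0636). *Hmga1* was lower, at 26.2 and 22.4 CPM against 47.2 and 46.9 CPM, and also missed without overlap (log2 change -1.01, adjusted p = 0.156). Of all genes, 53.1% did not overlap in this comparison. None of the 3 calls was left without the second NP mouse (*Elf3* adjusted p = 0.34, *Sox9* 0.056, *Sox10* 0.082). *Elf3* was also lost without the first NP (0.56) or the second PI mouse (0.78) and *Sox10* without the first NP (0.37) or the first PI mouse (0.14). With no filter on low counts none passed (*Sox9* 0.155), and with DESeq2's Wald test *Elf3* (0.134) and *Sox10* (0.105) missed. Dissociation stress genes were also higher in these cells, 6 of 10, as were 3 of 3 milk protein genes tested, and 3 of 6 basal markers were lower and 1 higher; their part was not tested.

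**Figure D4:**
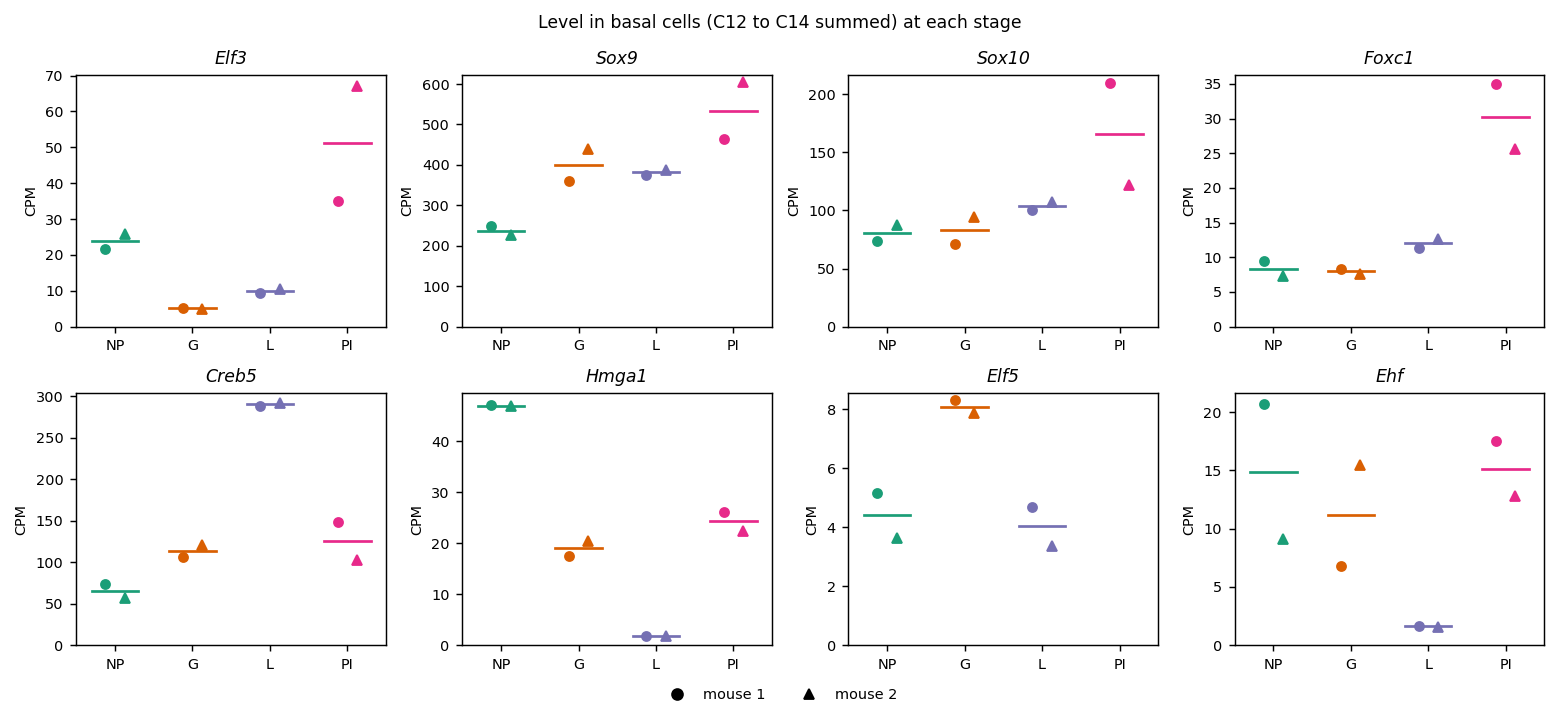
Level (CPM, linear axes from 0) of 8 of the genes in basal cells, C12 to C14 summed, at the 4 stages. Circles and triangles are mice 1 and 2 and bars their mean, and *Elf5* was too low to be tested in PI mice. *Hmga1* falls from 47.2 and 46.9 in NP to 1.75 and 1.87 in L, and *Creb5* is highest in L at 288 and 292.

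Of the other families in basal cells, *Sox4* rose by 0.84 in gestation (adjusted p = 6.50e-05) and fell in lactation from 1813 and 1918 CPM to 612 and 773 CPM (log2 change -1.32, adjusted p = 1.28e-04). *Etv4* fell in lactation from 20.1 and 21.5 CPM to 1.56 and 0.902 CPM (-3.93, adjusted p = 2.86e-05), and among 19 other ETS genes tested 11 were lower and 1 higher. *Id2* rose at both steps, by 1.66 and 1.97. *Atf3*, a stress-induced factor that is itself linked to dissociation, rose by 2.24 and 2.60.

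Differentiated hormone-sensing cells of gestation rested on 20 and 41 cells, and 2 of 8 genes passed against NP, both lower, against 18.6% of all genes (8.03% higher and 10.6% lower). *Sox9* fell from 384 and 430 CPM to 24.3 and 65.8 CPM, a log2 change of -3.22 (SE 0.29, adjusted p = 5.31e-26). *Hmga1* was at 31.1 and 32.8 CPM in NP and had 0 and 1 UMIs in G (adjusted p = 1.44e-04), too few for a fold change. In this comparison the median of all genes was also below 0, at -0.20. Here edgeR took the spread of each gene wholly from its fit over all genes. These p-values thus do not measure how far the mice lay apart in the single gene. Of 4 luminal markers 3 fell as well, and 5 of 5 milk protein genes rose; their part was not tested.

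The last comparison was between lactation and gestation in the secretory cells themselves. In alveolar progenitors (C10 and C11), 6 of 9 genes passed, against 28% of all genes (15.7% higher and 12.3% lower), 3 in each direction. *Elf5* rose from 256 and 208 CPM to 708 and 628 CPM, by 1.81 (SE 0.17, adjusted p = 7.78e-05). *Elf3* rose from 82.6 and 93.0 CPM to 174 and 592 CPM, by 2.38 (SE 0.45, adjusted p = 0.00399), all L values above all G values but far apart from each other. The 2 stages did not overlap for 70.5% of all genes here. Without the second L mouse the rise of *Elf3* was 1.30 and still passed. *Sox10* rose by 0.77 (68.9 and 76.7 CPM to 107 and 96.6 CPM, adjusted p = 0.00933), a call lost without the first G mouse (0.088) and with DESeq2's Wald test (0.0848).

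*Foxc1* fell from 98.7 and 107 CPM to 27.5 and 44.9 CPM (log2 change -1.26, SE 0.23, adjusted p = 0.00360) and *Creb5* from 216 and 283 CPM to 88.6 and 116 CPM (-1.01, SE 0.19, adjusted p = 0.00452). *Foxs1* went from 23 and 28 UMIs in C10 to 2 and 0 in C11 (adjusted p = 0.00296), so that no fold change is given. *Ehf*, at 515 and 485 CPM against 397 and 453 CPM, *Sox9* and *Hmga1* did not pass (adjusted p = 0.843, 0.935 and 0.267). Basal markers were higher in the same L sums, 6 of 6 with a median of 4.66, and their part in the values of *Creb5* and *Sox10*, which C14 also holds, was not tested.

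In differentiated alveolar cells (C8 and C9) 6 of 9 genes also passed, 2 higher and 4 lower in lactation, against 18.7% of all genes (9.54% higher and 9.17% lower), whose median change was -0.14. The test scales by the bulk of genes and not by the total, and milk protein genes took 96650 and 57390 CPM of C8 but 447500 and 417200 CPM of C9. *Elf5* was at 495 and 417 CPM in G and 469 and 482 CPM in L, overlapping in CPM, and rose by 0.96 after this scaling (SE 0.19, adjusted p = 0.00414). In CPM with the milk genes left out of the total the mice did not overlap, at 548 and 442 in C8 and 847 and 826 in C9. *Sox10* rose by 0.94 (SE 0.21, adjusted p = 0.00718), from 56.2 and 68.3 CPM to 77.9 and 52.4 CPM, again overlapping in CPM.

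*Ehf* fell from 381 and 506 CPM to 109 and 76.5 CPM, a log2 change of -1.37 (SE 0.22, adjusted p = 7.64e-04). *Foxs1* fell from 40.9 and 40.3 CPM to 5.19 and 6.71 CPM, or 3 and 5 UMIs in C9 (-1.84, SE 0.38, adjusted p = 0.00511), *Foxc1* from 61.9 and 63.7 CPM to 13.9 and 14.8 CPM (-1.22, adjusted p = 0.00789) and *Creb5* from 111 and 140 CPM to 41.6 and 30.9 CPM (-0.91, adjusted p = 0.0136). The ETS genes thus parted within 1 cell class, *Elf5* up and *Ehf* down. *Elf3*, *Sox9* and *Hmga1* did not pass (adjusted p = 0.0588, 0.148 and 0.528). None of the 6 calls was left without the second G mouse (*Elf5* adjusted p = 0.068, *Ehf* 0.060, *Sox10* 0.051, *Foxc1* 0.13, *Creb5* 0.31, *Foxs1* 0.056), when the calls among all genes went from 2219 to 609. Without the first G mouse *Foxc1* (0.10) and *Creb5* (0.097) missed, without the first L mouse *Sox10* (0.081), and without the second L mouse *Creb5* (0.095), which also missed in 1 fit over all sums (0.077). C9 rested on 42 and 47 cells, and 9 of 10 dissociation stress genes and 6 of 6 basal markers were higher in L in both alveolar classes, and cell division genes lower, 8 of 10 here and 8 of 9 in alveolar progenitors; their part was not tested.

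The change from gestation to lactation was compared between cell classes of the same mice. The log2 change in alveolar progenitors minus that in differentiated alveolar cells differed from 0 for 3 of 9 genes, the ETS genes, against 3.14% of all genes called. It was 0.78 for *Elf5* (SE 0.20, adjusted p = 0.0239) and 1.55 for *Elf3* (SE 0.38, adjusted p = 0.0194). For *Ehf*, which fell in the differentiated cells and did not pass in the progenitors, it was 1.34 (SE 0.25, adjusted p = 0.00187). For *Elf5* the call was lost with DESeq2's size factors (adjusted p = 0.060), without the first (0.35) and without the second G mouse (0.39). *Ehf* lost it without the second G mouse (0.095), and *Elf3* without either G mouse (0.10 in both) or the second L mouse (0.27). Between basal and differentiated alveolar cells 5 of 9 differed, against 19.3% of all genes. *Creb5* rose in basal cells and fell in alveolar cells, a difference of 2.38 (SE 0.23, adjusted p = 3.30e-08), and so did *Foxc1*, a difference of 1.95 (SE 0.36, adjusted p = 3.26e-04). *Elf5* differed by -1.86 (adjusted p = 2.16e-05), *Ehf* by -1.30 (0.0105) and *Foxs1* by 1.97 (0.0353). *Ehf* lost its call without the second G (0.27) or first L mouse (0.080), and *Foxs1* without either G mouse (0.11 and 0.21) or the first L mouse (0.28), or with DESeq2's size factors (0.0535).

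**Figure D5:**
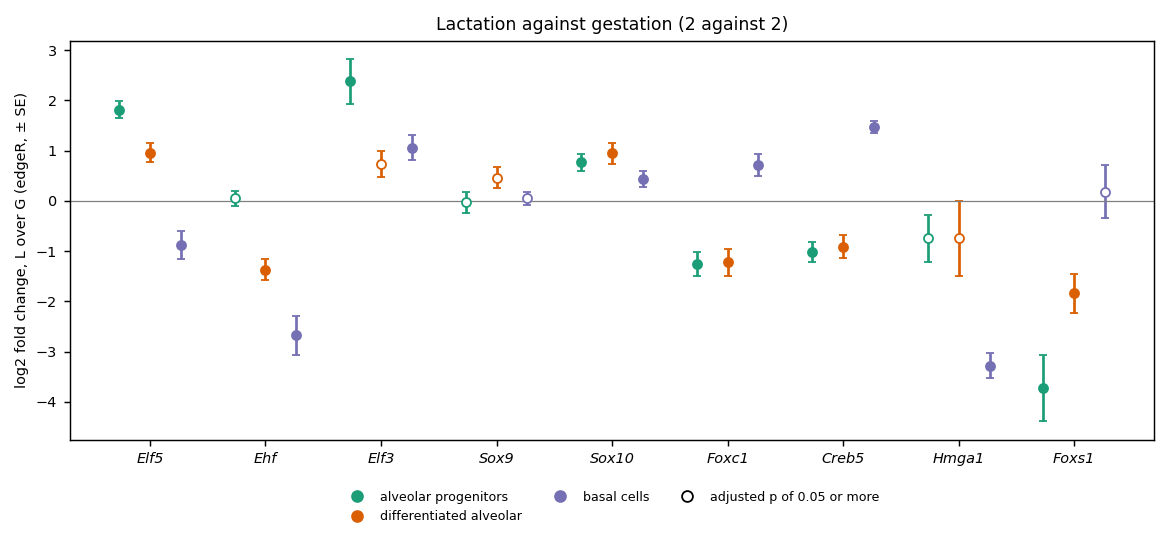
Log2 fold change (L over G, ± SE) of each gene in alveolar progenitors, differentiated alveolar cells and basal cells, from sums of 2 mice against 2. Filled symbols passed at an adjusted p under 0.05 and open ones did not: *Creb5* lies at 1.47 in basal cells and at -1.01 and -0.91 in the alveolar classes.

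Among 12 other regulators of the secretory lineage, 6 were higher and 1 lower in alveolar progenitors of lactation, with a median log2 change of 0.39 against -0.03 over all genes. *Xbp1*, a factor of the secretory pathway, went from 68.1 and 59.3 CPM to 400 and 278 CPM, a rise of 2.71 (adjusted p = 2.55e-05), and by 2.11 in differentiated alveolar cells (adjusted p = 5.66e-06). *Cebpb*, a leucine zipper factor needed for alveolar growth, rose by 2.22 in alveolar progenitors (adjusted p = 2.05e-05). *Bcl11a*, a progenitor factor, fell in both classes, by log2 changes of -1.30 and -2.50. Other ETS genes went down more than up, 4 of 9 tested lower and none higher in alveolar progenitors and 5 of 15 lower and 1 higher in differentiated cells, among them *Etv6* (-1.06 and -1.41). *Sox4* fell in both, by log2 changes of -1.09 and -1.48, while *Sox9* did not pass in either. Of the forkhead genes *Foxi1* rose in alveolar progenitors, from 0.765 and 1.87 CPM in G to 66.5 and 36.8 CPM in L (adjusted p = 9.01e-05), where *Foxc1* and *Foxs1* fell.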

How the data were processed

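Single cells were sequenced on the 10x Chromium 3′ platform. The deposited matrices hold whole UMI counts, which the authors made with Cell Ranger (STAR is named in the submitters' processing notes) on mm10, without normalisation between libraries. Quality flags and clusters C1 to C15 are the authors' deposited annotation, doublets were not called again here, and 1 annotated cell had no barcode in the matrices. The genes and lists were chosen with earlier results of these data known, and several genes had been picked by the study for their course over NP and G luminal cells.

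Counts were summed for each mouse and cell class (at least 20 cells) and tested with edgeR 4.0.16 in R 4.3.3 (TMM, filterByExpr with minimum counts of 10 and 15, glmQLFit and glmQLFTest, Benjamini-Hochberg over all genes, 0.05), in place of the study's fits over cells. Differences between classes were interaction terms with mouse in the fit. Named genes were these 9, at most 3 called genes of each list and comparison with the largest change, and for each of the 9 (all over 100 UMIs) the 5 genes of highest correlation among those with at least 20 CPM in 2 sums. The script was tested on simulated data. DESeq2 1.42.0, no filter, glmTreat, other scalings, a replicate block and leaving out each mouse were alternatives. Replicate numbers name different animals, and deviations of same-numbered mice correlated at -0.05 to 0.07. A withheld item is not reported here.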

Additional observations from a re-analysis of the deposited data

Results flagged for a closer look

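For 10 pairs of gene and comparison, the change between stages differed between cell classes of the same mice by edgeR's interaction test (adjusted p under 0.05), and these are given as differences of log2 fold changes. From NP to PI, differentiated hormone-sensing cells minus luminal progenitors gave -1.26 for *Foxc1* and 0.966 for *Hmga1*. From G to L, alveolar progenitors minus differentiated alveolar cells gave 0.779 for *Elf5*, 1.34 for *Ehf* and 1.55 for *Elf3*. Basal cells minus differentiated alveolar cells gave -1.86 for *Elf5*, -1.30 for *Ehf*, 1.95 for *Foxc1*, 2.38 for *Creb5* and 1.97 for *Foxs1*. Groups of 2 mice were too small to look for single mice far from the rest.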

How the results depend on the processing

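Of 59 calls of a gene in a comparison, none changed direction in any alternative, 42 passed in every alternative with all mice other than glmTreat, and 26 of them also without each mouse in turn. Of 53 that did not pass, 22 changed sign and 11 passed in at least 1 alternative. Among the 9 genes, the glmTreat test against a log2 fold change of 1 at FDR 0.01 called 0 in luminal progenitors, 1 in hormone-sensing progenitors, 0 in differentiated hormone-sensing cells and 0 in basal cells (PI against NP), 1 in differentiated hormone-sensing cells and 1 in basal cells (G against NP), and 3 in basal cells, 0 in differentiated alveolar cells and 1 in alveolar progenitors (L against G). In basal cells of PI against NP 0 passed with no filter, 1 with DESeq2's Wald test and 1 in 1 fit over all sums, which left 5 in hormone-sensing progenitors, and the Wald test left 4 in basal cells of L against G. With the replicate block 2 passed in basal cells of PI against NP (*Elf3* adjusted p = 0.18), and it changed no other call of these genes.

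Leaving out 1 mouse gave 5 to 8 genes in luminal progenitors, 3 to 8 in hormone-sensing progenitors, 1 to 4 in differentiated hormone-sensing cells and 0 to 2 in basal cells (PI against NP), 1 to 2 in differentiated hormone-sensing cells of G against NP (*Hmga1* was not tested without the first NP mouse), and 4 to 7 in basal cells and 0 to 7 in differentiated alveolar cells of L against G. For differences between classes it gave 1 to 2, 0 to 3 and 3 to 5. The highest cluster was the same under other totals, cell weights or depths for 7 to 9 of the 9 genes.

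Over all genes, glmTreat called 231, 127, 121 and 36 in the 4 PI against NP comparisons in the same order, 464 and 611 in G against NP, and 760, 342 and 352 in L against G. DESeq2's Wald test called 1590 in luminal progenitors, 823 in hormone-sensing progenitors and 385 in basal cells of PI against NP, 3098 in basal cells of G against NP and 1144 in alveolar progenitors, and with no filter 18 passed in basal cells of PI against NP against 632. The share of higher genes among those differing between basal and differentiated alveolar cells went from 48.7% to 36.2% with DESeq2's size factors, and between the alveolar classes from 59.3% to 72.2% without milk genes. Low counts limit *Foxs1* in C2, C9, C11 and basal cells, *Elf5* and *Ehf* in basal cells, and every gene in C5 and in basal cells of PI mice; an absence there is not shown.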
